A study of Pardosa pseudoannulata with 6 samples.

Results

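Vitellogenins, the precursors of egg yolk, and a vitellogenin receptor were followed in Pardosa pseudoannulata, a wolf spider, by 6 gene clusters of the 75542 in the deposited expression table. The 6 were listed by cluster number from best protein hits, 5 to vitellogenin-1, -2 or -3 and 1 to vitellogenin receptor-1, all of the same species. They were chosen by their FPKM in the dsFactin and dsNC libraries, the values compared below. Libraries came from material labelled as an individual, with no organ named, and all carry the labels of cadmium treatment and of microinjected double-stranded RNA. The 3 dsFactin libraries are those of RNA interference against the F-actin gene, and the 3 dsNC libraries are taken as their controls. Which actin cluster the injected RNA matched is not labelled, so the knockdown was not checked here. No label gives sex, age, cadmium dose or time after injection, and none says whether each replicate is a different spider. The p-values therefore cover only the spread between these libraries, which may be technical.

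Vitellogenins belong to the large lipid transfer proteins, a family that also holds apolipophorins and the microsomal triglyceride transfer protein, which loads lipid onto the others. In insects and other arthropods they are made mainly outside the ovary, in fat body or digestive gland, travel in the haemolymph, and are taken into growing oocytes by a receptor of the low-density lipoprotein receptor family. Vitellogenin messenger RNA is therefore commonly read as a sign of yolk formation, and receptor messenger RNA as a sign of ovarian oocytes. In whole animals, fewer cells of a type and less RNA per cell cannot be told apart.

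Values are FPKM, fragment numbers scaled to gene length and to library size, and the steps between low values gave back about 15500000 to 17700000 fragments per library, so whole fragments could be counted for clusters at low levels. Differences are dsFactin minus dsNC on the log2(FPKM + 1) scale with their standard error (SE), which understate change near or below 1 FPKM. For the 6 clusters they are a description with no test, because the clusters were chosen with this comparison known. Of 53182 genes tested with limma, 264 passed at an adjusted p under 0.05, or 0.496%, with 41 higher (0.0771%) and 223 lower (0.419%) in dsFactin. Over all genes tested the median difference was -0.27, -0.09 if libraries were rescaled by median ratio and 0.03 if quantile normalized. An unadjusted p under 0.05 was reached by 19.3%. All 3 dsFactin libraries lay above all 3 dsNC libraries in 5.98% of genes and below them in 21.5%. Of the 6 clusters, 3 lay above, 1 below and 2 overlapped, and nothing is read from that count.

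Vitellogenin-1 was almost absent from the control libraries and abundant after the F-actin injection. Its cluster (Cluster-8110.3985, 5621 bases) was at 0.290, 0.320 and 0.180 FPKM in dsNC replicates 1 to 3 and at 809, 507 and 227 FPKM in dsFactin replicates 1 to 3. The groups lay far apart, and within dsFactin the highest library was 3.56 times the lowest. In fragments this was 24, 27 and 17 against 76677, 44464 and 19375. The cluster thus ranked between 55061 and 60406 by level among all genes in dsNC and between 202 and 742 in dsFactin. The group means were 0.263 ± 0.0737 and 514 ± 291 FPKM (SD, n = 3), and the difference was 8.49 ± 0.44 (SE).

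Vitellogenin-2 was represented by a long and a short cluster that went opposite ways, the short one on a handful of fragments. The long cluster (Cluster-8110.23755, 5302 bases) was at 0.750, 1.01 and 0.890 FPKM in dsNC and at 94.9, 17.0 and 25.2 FPKM in dsFactin. All dsFactin libraries were higher, with replicate 1 well above the other two. Fragments numbered 58, 81 and 78 against 8461, 1400 and 2021, and the difference was 4.24 ± 0.60 (SE).

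The short vitellogenin-2 cluster (Cluster-14054.0, 374 bases) was at 2.83, 4.34 and 3.49 FPKM in dsNC, while every dsFactin library listed it at 0. These values stood for 3, 5 and 5 fragments, since a single fragment in a cluster this short equals 0.588 to 0.945 FPKM. The level given by the 13 fragments of dsNC was 4.87-fold that of a floor of 3 fragments over the dsFactin group. This figure takes the 13 fragments as exact. It covers counting error in dsFactin only and is not a lower bound on the difference. The short cluster has the same protein as best hit as the long cluster, which was higher in the dsFactin libraries.

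**Figure D1:**
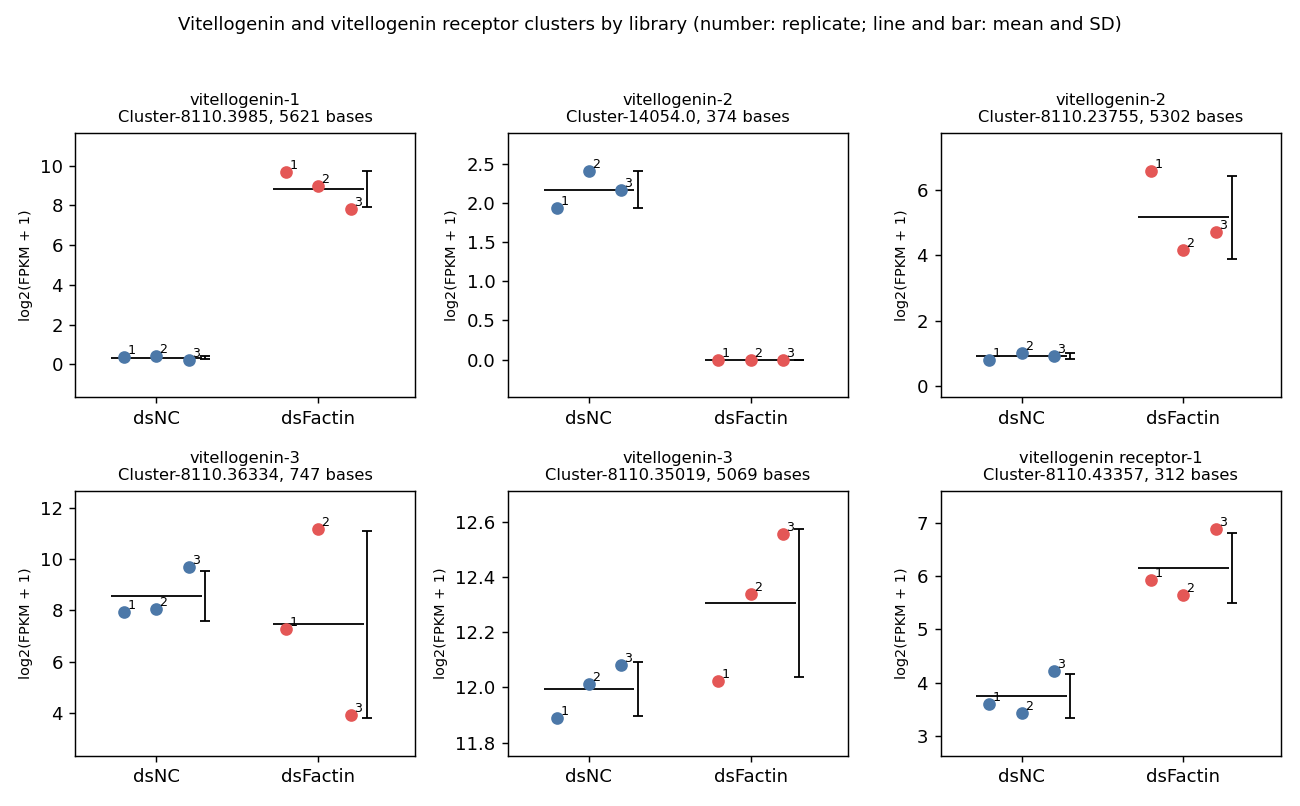
Level of the 6 clusters in each library, as log2(FPKM + 1) on axes of differing range, with the replicate number beside each point and the group mean and SD (n = 3) in black. Vitellogenin-1, the long vitellogenin-2 and the receptor cluster lie higher in all dsFactin libraries, the short vitellogenin-2 is listed at 0 there, and the groups overlap for both vitellogenin-3 clusters.

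Vitellogenin-3 was the abundant vitellogenin in every library and its long cluster differed little between groups. That cluster (Cluster-8110.35019, 5069 bases) was at 3793, 4126 and 4336 FPKM in dsNC and at 4156, 5173 and 6022 FPKM in dsFactin. Replicate 1 of dsFactin fell inside the dsNC range, so the groups overlapped. Its rank among all genes was between 15 and 31 in all 6 libraries. The means were 4085 ± 274 and 5117 ± 934 FPKM (SD, n = 3), a difference of 0.31 ± 0.19 (SE) that became 0.64 after median-ratio rescaling.

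The short vitellogenin-3 cluster (Cluster-8110.36334, 747 bases) varied more within groups than between them. It was at 247, 264 and 827 FPKM in dsNC and at 153, 2306 and 14.1 FPKM in dsFactin. Replicate 2 of dsFactin was 163 times replicate 3, and replicate 3 of dsNC stood 3.34 times above replicate 1. The mean was higher in dsFactin, at 824 ± 1285 against 446 ± 330 FPKM (SD, n = 3), while the log2 difference was negative, -1.11 ± 1.72 (SE). It was 0.65 without dsFactin replicate 3. The ratio of the short to the long vitellogenin-3 cluster ranged from 0.00234 in dsFactin replicate 3 to 0.446 in dsFactin replicate 2, although both clusters have the same best hit.

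By level the order in dsNC was long vitellogenin-3, short vitellogenin-3, the receptor, the short vitellogenin-2, the long vitellogenin-2 and vitellogenin-1. The short vitellogenin-3 lay above the receptor in every dsNC library. In dsFactin, vitellogenin-1 stood between the long vitellogenin-3 and the receptor in all 3 libraries, and the short vitellogenin-3 was second in replicate 2 but under the receptor in replicate 3. The receptor and the long vitellogenin-2 overlapped, at 49.0 to 118 and 17.0 to 94.9 FPKM. Vitellogenin-1 made up 0.00348 to 0.00728% of the FPKM of the 5 vitellogenin clusters in dsNC and 15.5, 6.33 and 3.61% in dsFactin replicates 1 to 3. The 5 together held 0.402 ± 0.0395% of all FPKM in dsNC and 0.576 ± 0.0810% in dsFactin (SD, n = 3), a sum led by the long vitellogenin-3.

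A further 15 clusters had a vitellogenin as best hit, 10 of them vitellogenin-3, and they split into several profiles across libraries. Vitellogenin-3 clusters Cluster-8110.34669 (1317 bases) and Cluster-8110.34361 (1205 bases) kept to the long cluster, at 0.467 to 0.526 and 0.337 to 0.369 times its FPKM in all 6 libraries. Cluster-8110.34758 (502 bases) and Cluster-8110.32960 (632 bases) kept to the short cluster, at 0.963 to 1.26 and 0.907 to 1.76 times its FPKM. Cluster-8110.31428 (376 bases) was at 1.06 to 1.39 times the short cluster in 5 libraries and at 4.40 times in dsFactin replicate 3, and Cluster-8110.36808 (483 bases) at 0.665 to 8.58 times.

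Other vitellogenin-3 pieces matched neither profile. Cluster-8110.36321 (352 bases) was at 627, 841 and 604 FPKM in dsNC and at 2508, 1358 and 4209 FPKM in dsFactin (log2 1.83 ± 0.41, SE, adjusted p = 0.0962 in limma). Cluster-8110.36666 (301 bases) was at 380, 346 and 673 FPKM in dsNC and at 1309, 1816 and 1074 FPKM in dsFactin (log2 1.61 ± 0.31, SE, adjusted p = 0.0797 in limma). For both, every dsFactin library was above every dsNC library. The remaining vitellogenin-3 hits, Cluster-8110.29832 and Cluster-8110.25100, were at 1.80 to 7.44 FPKM throughout and had weak hits for their length, with scores of 441 over 2570 bases and 194 over 1459 bases. The sources used here do not give how reads were divided among clusters that share sequence, which leaves the values of single vitellogenin-3 pieces uncertain.

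**Figure D2:**
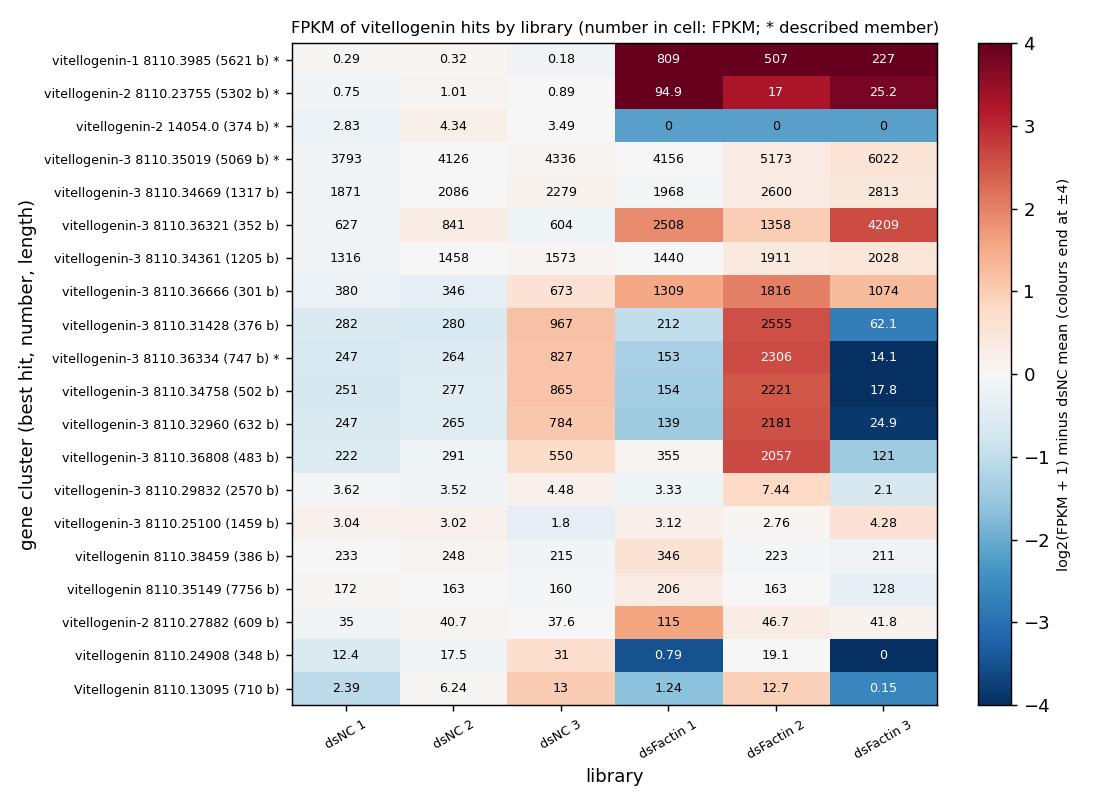
FPKM (numbers) of the 20 clusters with a vitellogenin best hit in the 6 libraries, coloured by log2(FPKM + 1) minus the dsNC mean of the cluster. The long vitellogenin-3 and its 2 followers stay near their dsNC level, while the short vitellogenin-3 and its followers are high in dsNC replicate 3 and dsFactin replicate 2 and low in dsFactin replicate 3.

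Vitellogenins named after other spiders did not share a single profile. The longest (Cluster-8110.35149, 7756 bases, best hit in Trichonephila inaurata madagascariensis) was at 172, 163 and 160 FPKM in dsNC and at 206, 163 and 128 FPKM in dsFactin (log2 -0.02 ± 0.18, SE, adjusted p = 0.951 in limma). Its groups overlapped, as did those of Cluster-8110.38459 (233, 248 and 215 FPKM against 346, 223 and 211 FPKM). A vitellogenin-2 hit of Nephila pilipes (Cluster-8110.27882, 609 bases) was at 35.0, 40.7 and 37.6 FPKM in dsNC and at 115, 46.7 and 41.8 FPKM in dsFactin, highest in the same replicate as vitellogenin-1 and -2. Cluster-8110.24908 and Cluster-8110.13095 had their highest dsNC level in replicate 3, at 31.0 and 13.0 FPKM, and their lowest level of all in dsFactin replicate 3, at 0 and 0.150 FPKM. In dsFactin both were highest in replicate 2, at 19.1 and 12.65 FPKM. Within each group their order of libraries was that of the short vitellogenin-3. In limma 0 of these 15 clusters passed and 2 had an unadjusted p under 0.05 (0.496% and 19.3% over all genes). In dsFactin 3 lay wholly above (5.98% over all genes). When only genes averaging 5 FPKM or more were tested 1 passed, and without dsFactin replicate 2, 2 passed.

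The vitellogenin receptor was higher in every dsFactin library. The receptor-1 cluster (Cluster-8110.43357, 312 bases) was at 11.1, 9.84 and 17.7 FPKM in dsNC and at 60.2, 49.0 and 118 FPKM in dsFactin. The group means were 12.9 ± 4.19 and 75.6 ± 36.8 FPKM (SD, n = 3), and the difference was 2.40 ± 0.37 (SE). Because the cluster is short these values rest on 4, 4 and 10 fragments in dsNC and 44, 21 and 51 in dsFactin. Its hit is also the weakest of the 6, with a score of 152, or 1.46 per codon of cluster length, where the 5 vitellogenin clusters score 4.45 to 5.23.

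Longer receptor clusters were also higher in dsFactin, with more fragments behind them. A further 13 clusters had vitellogenin receptor-1 as best hit, and 12 were tested. Cluster-8110.40530 (3659 bases, score 3391) was at 11.4, 13.3 and 9.53 FPKM in dsNC and at 28.7, 43.6 and 77.3 FPKM in dsFactin (log2 1.93 ± 0.35, SE, adjusted p = 0.0742 in limma). Cluster-8110.41483 (2269 bases, score 3215) was at 16.9, 17.4 and 14.9 FPKM in dsNC and at 45.2, 52.1 and 124 FPKM in dsFactin (log2 1.96 ± 0.37, SE, adjusted p = 0.0784 in limma). In both, replicate 3 of dsFactin was the highest library and the groups did not overlap.

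Over the 12 tested receptor-1 clusters the differences were all positive, from 1.41 to 2.53, with a median of 1.84. Of them, 9 lay wholly above in dsFactin (5.98% over all genes). In limma 0 passed, with 10 at an unadjusted p under 0.05 (0.496% and 19.3% over all genes). When only genes averaging 5 FPKM or more were tested 2 passed, and without dsFactin replicate 3, 1 passed. Clusters that share a best hit may be pieces of the same transcript, so these counts are not independent. Replicate 3 of dsFactin was the highest library for 10 of the 12. The other 2, Cluster-8110.16099 and Cluster-8110.50158, peaked in dsFactin replicate 2, at 38.7 and 29.9 FPKM, with 1.96 and 0 FPKM in replicate 1. The thirteenth (Cluster-8110.8348), under the filter on low values, also peaked there, at 4.85 FPKM.

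The second receptor, vitellogenin receptor-2 (Cluster-8110.33555, 4719 bases), was at 0.880, 0.860 and 0.520 FPKM in dsNC and at 2.81, 2.39 and 4.74 FPKM in dsFactin (log2 1.27 ± 0.27, SE, adjusted p = 0.0913 in limma). The groups did not overlap and replicate 3 was again highest. A receptor hit of Trichonephila clavata (Cluster-8110.24263) was at 3.39 to 4.27 FPKM in dsNC and 2.05 to 3.63 FPKM in dsFactin, with overlapping groups (adjusted p = 0.617 in limma).

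**Figure D3:**
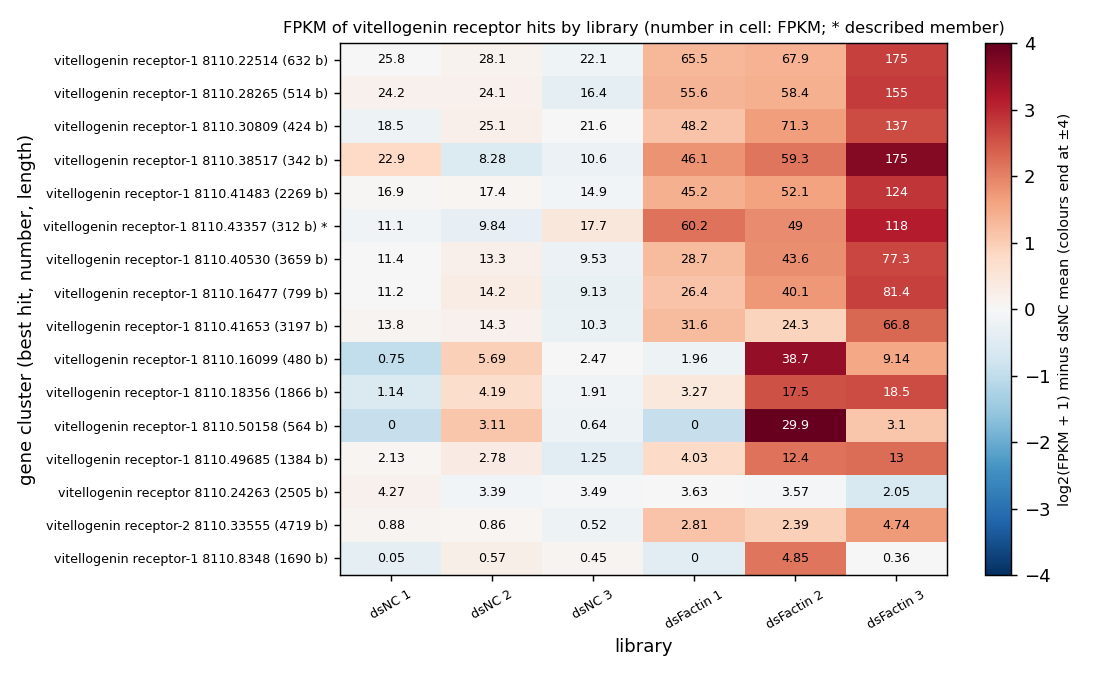
FPKM (numbers) of the 16 clusters with a vitellogenin receptor best hit in the 6 libraries, coloured by log2(FPKM + 1) minus the dsNC mean of the cluster. Most receptor-1 clusters are highest in dsFactin replicate 3, and the receptor cluster of Trichonephila clavata shows no such level.

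Vitellogenin-1, the long vitellogenin-2 and the receptor parted the groups alike, but the order of libraries within dsFactin differed from cluster to cluster. Among the dsFactin libraries vitellogenin-1 was highest in replicate 1 and lowest in replicate 3, the long vitellogenin-2 was highest in replicate 1, the long vitellogenin-3 and the receptor were highest in replicate 3, and the short vitellogenin-3 was highest in replicate 2. In dsFactin vitellogenin-1 was at 8.52, 29.9 and 9.01 times the FPKM of the long vitellogenin-2, and in dsNC at 0.387, 0.317 and 0.202 times. The receptor was at 0.0744, 0.0966 and 0.517 times vitellogenin-1 in dsFactin replicates 1 to 3, so the library with the least vitellogenin-1 had the most receptor. With 3 libraries a group, no correlation within a group was computed.

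Likeness to vitellogenin-1 was measured as Pearson's r of log2(FPKM + 1) over the 6 libraries, as a description, among 34428 other tested genes with a mean of at least 1 FPKM. Since the libraries fall into 2 groups, a high r mainly says that a gene separates them the same way, and 154 genes had r above 0.95. Of the 8 most alike, 3 carried a best hit. An apolipophorins-like transcript (Cluster-8110.44450, r = 0.998) was at 0.890, 0.780 and 0.690 FPKM in dsNC and at 374, 154 and 97.7 FPKM in dsFactin. A hit to the muscle-specific form of the nascent polypeptide-associated complex subunit alpha (Cluster-8110.50450, r = 0.998), weak at a score of 0.420 per codon, was at 0.650, 0.760 and 0.660 FPKM in dsNC and at 37.3, 22.2 and 16.9 FPKM in dsFactin. The third (Cluster-8110.39986, r = 0.995), an uncharacterized protein, was at 29.6 to 33.6 FPKM in dsNC and 66.7 to 78.3 FPKM in dsFactin. All 3 shared the order of dsFactin libraries seen for vitellogenin-1. The remaining 5 were Cluster-8110.40301, Cluster-8110.44867, Cluster-8110.7239, Cluster-8110.43242 and Cluster-8110.44134, the first 3 of them listed at 0 in dsNC.

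The 5 vitellogenin clusters share the lipoprotein amino terminal domain, and the 3 long ones also carry the vitellinogen open beta-sheet domain. Of 18 other genes with the amino terminal domain, 3 rose and 0 fell in limma, 8 had an unadjusted p under 0.05, and the median difference was 0.53. Over all genes tested 0.0771% rose and 0.419% fell in limma, and 19.3% had an unadjusted p under 0.05. Among the 18 are 5 of the vitellogenin hits described above. The first of the 3 that rose was the apolipophorins-like transcript above (log2 6.65 ± 0.46, SE, adjusted p = 0.00634). With it rose an apolipoprotein B-100 hit (Cluster-8110.39310, 17.4 ± 1.95 to 41.9 ± 3.92 FPKM, adjusted p = 0.0384) and a microsomal triglyceride transfer protein (Cluster-8110.38967, 32.5 to 39.3 FPKM in dsNC against 70.2 to 88.1 FPKM in dsFactin, adjusted p = 0.0403). The apolipoprotein values are means with SD (n = 3). Other microsomal transfer protein hits, named after their values were seen, did not pass: Cluster-8110.33153 at 22.4 and 56.0 FPKM (adjusted p = 0.0600) and Cluster-8110.33422 at 4.11 and 22.3 FPKM (adjusted p = 0.0749). A longer hit to this protein, Cluster-8110.34033 (6932 bases), hardly differed, with overlapping groups and means of 12.6 (dsNC) and 12.0 FPKM (dsFactin). Its log2 difference was -0.08 ± 0.16 (SE, adjusted p = 0.811 in limma). The apolipophorins-like call was lost without dsNC replicate 1 (adjusted p = 0.0501) or 2 (adjusted p = 0.0676), and the others in every fit that left out a library except without dsFactin replicate 2. Of 12 other tested genes with the open beta-sheet domain 2 rose and 0 fell in limma, with 6 positive differences and a median of 0.01. An unadjusted p under 0.05 was reached by 3 of them. The receptor cluster carries the low-density lipoprotein receptor class A domain, and of 159 other tested genes with it 0 rose and 2 fell. An unadjusted p under 0.05 was reached by 48, with 31 wholly above and 25 wholly below (19.3%, 5.98% and 21.5% over all genes). Of the genes with this domain, 11 are among the receptor hits described above.

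Gene lists around yolk formation were read against the whole table. Of 35 large lipid transfer proteins 5 rose and 0 fell (0.0771% and 0.419% over all genes), with a median of 0.08. An unadjusted p under 0.05 was reached by 10, with 10 wholly above and 0 wholly below (19.3%, 5.98% and 21.5% over all genes). The 5 were Cluster-8110.44450, Cluster-8110.39310, Cluster-8110.38967, an apolipophorin (Cluster-8110.35645, 26.2 ± 0.790 to 60.5 ± 8.82 FPKM, SD, n = 3) and an apolipoprotein B-100 like protein (Cluster-8110.24455, 502 bases, 10.2 to 15.2 against 29.6 to 34.5 FPKM), the third and the last chosen after their values were seen. The count was 0 without dsNC replicate 1 or 2, 1 without dsNC replicate 3, dsFactin replicate 1 or dsFactin replicate 3, and 7 without dsFactin replicate 2. It was 0 with the replicate block, 1 with no trend and 2 with no filter. The calls of Cluster-8110.35645 and Cluster-8110.24455 held, with a library left out, only without dsFactin replicate 2. The median ranged from 0.05 to 0.56 without 1 library and was 0.41 after median-ratio rescaling. At the other end of the list were short pieces with the profile of the short vitellogenin-3: Cluster-8110.10717 was at 16.9, 15.8 and 38.8 FPKM in dsNC and at 3.53, 45.0 and 0 FPKM in dsFactin (adjusted p = 0.466 in limma).

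Of 45 other yolk and eggshell genes 0 passed limma and 18 reached an unadjusted p under 0.05 (0.496% and 19.3% over all genes). With no trend 1 passed, with array weights 1, and among genes averaging 5 FPKM or more 3. They included the vitellogenin and receptor clusters above, and the median was 0.13. Of the chorion peroxidase hits, enzymes that harden the insect eggshell, the 3 named here did not pass. Cluster-8110.18954 was at 2.39, 3.49 and 3.37 FPKM in the dsNC libraries, against 0.410, 0.0600 and 0.0300 FPKM in dsFactin (adjusted p = 0.0522 in limma). A second, Cluster-8110.31505, was at 1.46 to 2.73 and 0.120 to 0.620 FPKM (adjusted p = 0.0952 in limma). The third, Cluster-8110.37488, was at 9.65 to 10.2 and 3.95 to 7.16 FPKM (adjusted p = 0.190 in limma). In each, all dsFactin libraries were below all dsNC libraries, but these 3 were named for the lowest p among the falling genes of the list. Of the 45 genes 14 lay wholly above and 6 wholly below, against 5.98% and 21.5% of all genes.

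Among 64 tested lipoprotein receptor and endocytosis genes 0 rose and 1 fell (0.0771% and 0.419% over all genes). The gene that fell was a putative VLDL receptor (Cluster-8110.37051), from 403 ± 5.71 to 220 ± 16.7 FPKM (SD, n = 3, log2 -0.87 ± 0.11, SE, adjusted p = 0.0425 in limma). Its level thus went the opposite way to the vitellogenin receptor clusters, although that difference was not tested. The call was kept without dsFactin replicate 2 and lost in the fits that left out any other library.

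Hormone genes linked to yolk formation in arthropods were tested as well. Of 12 ecdysteroid genes 0 passed in limma, 6 had an unadjusted p under 0.05 (19.3% over all genes), and the median was -0.53. Of these genes, 8 lay wholly below and 0 wholly above in dsFactin (21.5% and 5.98% over all genes). The ecdysone receptor (Cluster-8110.35819), the nuclear receptor of the moulting hormone, was at 29.7, 34.3 and 32.3 FPKM in dsNC and at 16.6, 20.3 and 13.9 FPKM in dsFactin (adjusted p = 0.0742 in limma). Its partner ultraspiracle (Cluster-8110.35111) was at 5.41 to 8.33 and 2.11 to 3.38 FPKM (adjusted p = 0.0973 in limma), so neither overlapped between groups. Both were named for a low p among the falling genes of the list.

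Of 18 juvenile hormone and methyl farnesoate genes 0 passed in limma, 7 had an unadjusted p under 0.05 (19.3% over all genes), and the median was 0.15. Farnesol dehydrogenase, which oxidises farnesol on the way to juvenile hormone in insects, was at 40.1, 57.3 and 45.8 FPKM in dsNC and at 121, 174 and 350 FPKM in dsFactin for Cluster-8110.26748 (adjusted p = 0.0784 in limma). Cluster-8110.37040 and Cluster-8110.31758 had the same order of dsFactin libraries, highest in replicate 3 like the receptor, while Cluster-8110.32840 was at 24.6 to 35.4 and 14.5 to 18.1 FPKM (adjusted p = 0.0878 in limma). Of 49 insulin and TOR genes 0 rose and 1 fell (0.0771% and 0.419% over all genes). The gene that fell was an insulin-like growth factor-binding domain protein (Cluster-8110.27248, 23.9 ± 4.12 to 4.94 ± 2.18 FPKM, SD, n = 3, adjusted p = 0.0496 in limma). Of the fits leaving out a library, its call held only without dsFactin replicate 2. Of 5 proprotein convertases, the class of enzyme that cleaves vitellogenin in insects, 0 passed in limma and 0 had an unadjusted p under 0.05.

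**Figure D4:**
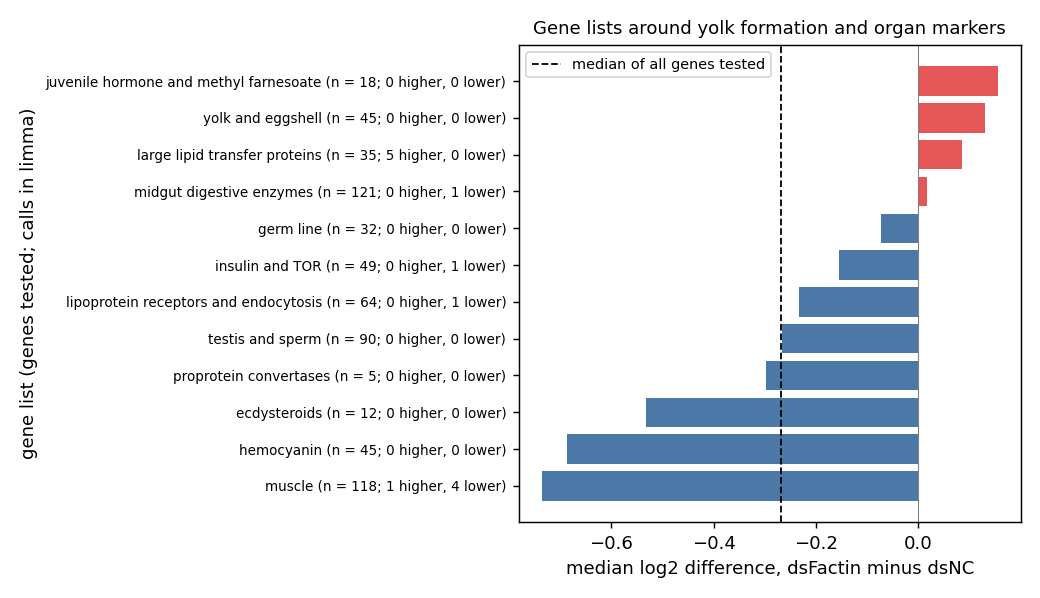
Median log2 difference (dsFactin minus dsNC) of 12 gene lists, with the 6 clusters left out, beside the median of all genes tested (dashed, -0.27) and with genes tested and limma calls in each label. Juvenile hormone, yolk and eggshell, and large lipid transfer genes have the highest medians, at 0.15, 0.13 and 0.08, and muscle and hemocyanin the lowest, at -0.74 and -0.69.

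Marker lists of organs were set beside these levels, and the part of any organ in the vitellogenin levels was not tested. Of 32 germ line genes 0 passed in limma, 7 had an unadjusted p under 0.05, and 14 differences were positive, with a median of -0.07. In dsFactin 7 lay wholly above and 7 wholly below (5.98% and 21.5% over all genes). Bicaudal C (Cluster-8110.38560), an RNA-binding protein of Drosophila oogenesis, was at 96.7, 83.9 and 235 FPKM in dsFactin against 27.9 to 37.7 FPKM in dsNC (adjusted p = 0.0874 in limma). Vasa (Cluster-8110.32991), a germ line RNA helicase, was at 52.2 to 54.3 FPKM in dsNC and 63.1 to 105 FPKM in dsFactin (adjusted p = 0.238 in limma). Other germ line genes lay wholly below. Pumilio 2 (Cluster-8110.37965), a translational repressor, was at 7.53 to 9.37 FPKM in dsNC and 4.44 to 6.13 FPKM in dsFactin (adjusted p = 0.170 in limma). Differences were -0.67 for Tudor domain-containing protein 1 (Cluster-8110.34762, adjusted p = 0.189) and -0.45 for the Piwi-like Ago3 (Cluster-8110.38150, adjusted p = 0.198), both of the small RNA pathway of the germ line. The summed list was at 535 to 577 FPKM in dsNC and 613 to 882 FPKM in dsFactin, but without bicaudal C, an alternative added after seeing the data, at 507 to 539 and 529 to 646 FPKM, which overlap.

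Of 90 testis and sperm genes 0 passed in limma, 9 had an unadjusted p under 0.05 and 14 were positive, with 2 wholly above and 22 wholly below. The median was -0.27, as over all genes tested, of which 5.98% lay wholly above and 21.5% wholly below. Of all 119 in the list, 10 had 0 FPKM in every dsFactin library and 1 in every dsNC library, while summed levels overlapped at 1469 to 1626 and 1259 to 2049 FPKM. The whole table also had fewer genes above 0 FPKM in dsFactin, at 54264, 55781 and 47167 per library. In dsNC they numbered 57714, 60864 and 61503, so the zeros are not read as particular to this list. Summed digestive enzymes were at 20998 to 27126 FPKM in dsNC and 31477 to 36989 FPKM in dsFactin. Of the 121 tested 0 rose and 1 fell, 49 had an unadjusted p under 0.05, and 40 lay wholly above and 17 wholly below. Over all genes tested these shares were 19.3%, 5.98% and 21.5%. Leaving out 1 library gave 0 to 10 calls among the digestive enzymes.

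Summed muscle genes were at 15338 to 18304 FPKM in dsNC and 7847 to 10278 FPKM in dsFactin. Of the 118 tested 1 rose, the nascent polypeptide-associated complex hit above, and 4 fell. An unadjusted p under 0.05 was reached by 61, and 4 lay wholly above and 63 wholly below (19.3%, 5.98% and 21.5% over all genes). Muscle calls ranged from 0 to 14 without 1 library and numbered 22 among genes averaging 5 FPKM or more. Summed hemocyanin was at 71802 to 88730 and 43749 to 53999 FPKM, with 0 of 45 genes passing in limma, 27 at an unadjusted p under 0.05 and 28 wholly below. Hemocyanin calls ranged from 0 to 3 without 1 library. They numbered 14 among genes averaging 5 FPKM or more and 2 with array weights.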

How the data were processed

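RNA sequencing libraries of 3 dsNC and 3 dsFactin samples were grouped by title. Per the file headers, the authors deposited FPKM values, rounded to 2 decimals, for 75542 numbered clusters with a length, annotation and a best-hit score, the score being the deposited protein search score. The aligner, assembler and counter were not given in the sources used here. Per the submitters' processing notes the build is mm10, a mouse genome, and the clusters carry no coordinates. Names come from the best protein hit, or the Swiss-Prot hit where the first was uninformative. Clusters with a Drosophila best hit (2135) were left out of the 12 word lists.

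The test used log2(FPKM + 1) in limma 3.58.1 (R 4.3.3) on the 53182 genes that reached 0.5 FPKM in 3 or more libraries. It was two-sided, with a trend on intensity and Benjamini-Hochberg adjustment. Tested on simulated data drawn for the dsFactin and dsNC libraries over the same 53182 genes, it called 13% of 100 genes changed 2-fold and 73% of 100 changed 8-fold, with 10 false calls. Neither rate was split by level, and the changed genes were all drawn from those averaging 5 FPKM or more. The rates therefore do not cover genes below that level, for which both may be too high. Depth came from fitting the FPKM of single fragments against length, and 98.1 to 99.3% of low values were within 0.1 of a whole fragment. Intervals and floors cover counting error only, and the floor of the short vitellogenin-2 covers only that of dsFactin.

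Named genes were the 6 clusters, other vitellogenin and receptor hits, up to 3 genes per list and direction by p among genes averaging 1 FPKM or more, and the 8 genes most like vitellogenin-1. The domain groups were added after the data were seen. The clusters and lists were chosen with earlier results of these data known, and 3 lists were reworded after seeing unrelated names in them. Alternatives were other pseudocounts, filters, scalings and weights, no trend, the replicate block and leaving out each library.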

Additional observations from a re-analysis of the deposited data

How the results depend on the processing

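Differences of the 6 clusters were recomputed with other pseudocounts, both rescalings, the replicate block and each library left out. They kept their sign in these, except for the short vitellogenin-3 (Cluster-8110.36334), which was 0.65 without dsFactin replicate 3. Fits without 1 library gave 8.08 to 8.99 for vitellogenin-1, 3.53 to 4.74 for the long and -2.29 to -2.05 for the short vitellogenin-2, 0.185 to 0.452 for the long and -2.97 to 0.65 for the short vitellogenin-3, and 2.04 to 2.66 for the receptor. At pseudocounts of 0.1 and 0.01 vitellogenin-1 was at 10.31 and 10.74 and the short vitellogenin-2 at -5.17 and -8.46, and at 0.01 the long vitellogenin-2 was at 5.28, since a pseudocount sets the scale near 0 FPKM. The long vitellogenin-3 was at 0.64 after median-ratio rescaling. The vitellogenin share of all FPKM was higher in dsFactin by 0.130 to 0.210 percentage points without 1 library.

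Calls over all genes (264) and in the lists (13) depended on the fit. They numbered 114 and 5 at a pseudocount of 0.01, 119 and 7 after median-ratio rescaling, 117 and 4 with no filter, 781 and 62 among genes averaging 5 FPKM or more, 174 and 5 with no trend, and 702 and 34 with array weights. Leaving out 1 library gave 33 to 1297 and 0 to 43, with the highest counts without dsFactin replicate 2. The share of calls that were higher was 15.5%, 27.0% with quantile normalization, 31.5% among genes averaging 5 FPKM or more, 27.6% without dsFactin replicate 3 and 5.19 to 6.67% without a dsNC library. Medians of the insulin and TOR, germ line, and lipoprotein receptor lists turned positive after median-ratio rescaling, at 0.08, 0.23 and 0.07, and that of the testis and sperm list was 0.02 with quantile normalization. The cause was not tested. With the replicate block 17 genes passed over all genes and 0 in the lists. Deviations of same-numbered libraries correlated at 0.0994, -0.108 and -0.153 over genes, so the numbers were not taken as pairs. Depth limits the short vitellogenin-2 and receptor clusters most, with 3 to 5 and 4 to 10 fragments per dsNC library.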

Other observations

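Genes outside the yolk list shared the profile of the short vitellogenin-3 cluster, and were chosen after their values were seen. Among 34428 genes, 379 had r above 0.95 with it over the 6 libraries, a description with no test. Cathepsin B (Cluster-8110.35999, r = 0.998), a lysosomal and digestive protease, was at 206, 211 and 666 FPKM in dsNC and at 137, 2049 and 7.28 FPKM in dsFactin. An astacin-like metalloprotease toxin 5 (Cluster-8110.25493, r = 0.998) was at 230, 198 and 564 FPKM in dsNC and at 135, 1077 and 21.7 FPKM in dsFactin. Both shared the low level in dsFactin replicate 3 and the high level in dsFactin replicate 2.

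The long vitellogenin-2 was most like a vacuole membrane protein (Cluster-8110.32749), at 31.4 to 32.2 FPKM in dsNC and 38.7 to 44.4 FPKM in dsFactin. The receptor cluster was most like a carotene dioxygenase hit (Cluster-8110.38453, r = 0.999), of the enzymes that cleave carotenoids to retinal, at 86.8 to 98.2 FPKM in dsNC and 127 to 157 FPKM in dsFactin. Axonemal dynein heavy chain 7 (Cluster-8110.34192), of the motors of cilia, is 1 of the 2 testis and sperm genes wholly above in dsFactin. Of the 90 tested in that list 22 lay wholly below, against 21.5% of all genes. The list's median was -0.27, the same as over all genes tested. This dynein gene had the library order of the receptor cluster within dsFactin, at 135, 96.6 and 350 FPKM against 42.1 to 48.0 FPKM in dsNC (adjusted p = 0.111 in limma).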
